A study of Mus musculus with 12 samples.

Results

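Transcripts of 10 genes of the macrophages of the splenic red pulp and of the erythroblastic island were followed, array by array, in erythroblasts sorted from the spleens of anaemic mice. The genes were C1qa, C1qb, C1qc, Adgre1, Csf1r, Vcam1, Cd163, Spic, Hmox1 and Slc40a1. They were taken by name as genes that report macrophage material attached to or sorted with the erythroblasts. All 10 were named by a feature of the array, among 30701 named genes, and all 10 were among the 20129 genes tested, those with a log2 value above 5.30 (the median over the whole table) in 3 arrays or more. Cd163 exceeded that value in 3 arrays, all of them basophilic, and Spic in 4 arrays. Male mice had been kept on a selenium deficient or a selenium adequate diet for 3 months and then given phenylhydrazine, a drug that destroys red cells, which every group received. On day 3 after the drug, proerythroblasts, the earlier stage, and basophilic erythroblasts, the stage that follows, were sorted from the spleen by flow cytometry. The 12 arrays formed 4 groups of 3: basophilic erythroblasts of deficient mice, basophilic erythroblasts of adequate mice, proerythroblasts of deficient mice and proerythroblasts of adequate mice. Each array was made from 5 ng of total RNA. The labels give no strain, age, sorting markers or number of mice per sample, and do not say whether arrays of a group came from separate mice, so p-values measure only the spread between these arrays, which may be technical.

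Erythroblasts of the spleen mature while attached to a central macrophage, which holds them through adhesion molecules, takes up expelled nuclei and supplies iron. Macrophages of the red pulp clear aged and damaged red cells, break down their heme and export the iron that is freed. When erythroblasts are sorted, macrophage fragments can stay on their surface. In bulk samples of this kind, fewer cells of a type and less RNA per cell cannot be told apart.

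The cell type labels were first set against erythroid genes. Slc4a1, the band 3 anion exchanger of red cells, lay between 13.36 and 13.53 in the basophilic arrays and between 11.51 and 13.13 in the proerythroblast arrays. Alas2, which starts heme synthesis in erythroid cells, lay between 12.52 and 12.88 in the basophilic arrays and between 9.53 and 11.78 in the proerythroblast arrays. The description of deficient basophilic array 3 names proerythroblasts, against its title and its cell type label, and it was kept as basophilic. Its values of both genes, 13.53 for Slc4a1 and 12.69 for Alas2, lay above every proerythroblast array. The basophilic arrays had a higher background: the median of 23 GC background features was 3.63 to 4.70 in basophilic arrays and 3.31 to 3.53 in proerythroblast arrays. It was highest in basophilic array 2 of each diet, at 4.70 on the deficient and 4.19 on the adequate diet, and these 2 arrays also had the narrowest spread of values, with interquartile ranges of 2.17 and 2.25.

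C1qa, C1qb and C1qc lie next to each other on chromosome 4, and the promoters of C1qb and C1qc are shown because the array patterns of these neighbours are set side by side, with that of Spic, whose protein is itself a transcription factor of the red pulp macrophage. RefSeq gave 4 of the 10 promoters (C1qb, C1qc, Cd163 and Spic, assembly GRCm38.p6). Each sequence is the 250 bases before the annotated start, 5′ to 3′ on the strand of the gene. The C1qb window is chr4:136886201-136886450 on the minus strand, that of C1qc is chr4:136892915-136893164 on the minus strand and that of Spic is chr10:88683024-88683273 on the minus strand. Capitals mark matches, on either strand, to GAGGAA (the core bound by PU.1), TGACNNNGC (the core of antioxidant and Maf response elements) or AGATAA (the GATA motif).
C1qb: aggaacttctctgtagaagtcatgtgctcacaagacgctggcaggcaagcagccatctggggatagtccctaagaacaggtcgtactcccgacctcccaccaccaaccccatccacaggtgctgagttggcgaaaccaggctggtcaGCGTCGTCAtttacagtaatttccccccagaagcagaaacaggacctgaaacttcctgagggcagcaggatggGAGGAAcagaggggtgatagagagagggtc
C1qc: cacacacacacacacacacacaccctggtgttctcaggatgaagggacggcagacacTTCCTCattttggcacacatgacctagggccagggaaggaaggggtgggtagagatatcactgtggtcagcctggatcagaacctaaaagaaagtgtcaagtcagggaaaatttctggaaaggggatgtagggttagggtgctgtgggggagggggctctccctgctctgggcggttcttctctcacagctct
Spic: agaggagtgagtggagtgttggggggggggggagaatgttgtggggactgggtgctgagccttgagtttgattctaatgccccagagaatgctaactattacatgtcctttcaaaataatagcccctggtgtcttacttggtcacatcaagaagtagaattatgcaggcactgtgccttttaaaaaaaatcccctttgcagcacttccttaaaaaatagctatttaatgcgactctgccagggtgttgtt
C1qb held GAGGAA from 30 to 25 bases before the start, and TGACNNNGC on the opposite strand from 103 to 95 bases before it. C1qc held GAGGAA on the opposite strand from 193 to 188 bases before the start. That start lies within the annotated span of the gene, which reaches 136892936, so the last bases of the C1qc window fall inside the span. The windows of Spic and Cd163 held none of the 3 motifs. GAGGAA occurred in 23.3% of the 32851 promoters of the table, TGACNNNGC in 10.2% and AGATAA in 9.99%, so a match is a description of these letters only.

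The chains of complement C1q, made in the spleen mostly by macrophages, were measured on every array, on the deposited log2 scale. C1qa, the A chain, was at 6.88, 6.92 and 6.54 in deficient and 6.82, 6.59 and 6.55 in adequate basophilic arrays 1, 2 and 3, and at 6.49, 6.17 and 6.65 in deficient and 6.33, 6.08 and 6.88 in adequate proerythroblast arrays. All 4 groups overlapped. C1qb, the B chain, was at 7.79, 7.47 and 6.88 in deficient and 7.52, 7.21 and 6.83 in adequate basophilic arrays, and at 6.75, 6.53 and 7.88 in deficient and 6.17, 6.24 and 7.89 in adequate proerythroblast arrays. Proerythroblast array 3 of each diet was above every basophilic array, while the other proerythroblast arrays were below every basophilic array. C1qc, the C chain, was at 6.43, 6.78 and 6.41 in deficient and 6.52, 6.62 and 6.40 in adequate basophilic arrays, and at 5.77, 6.06 and 6.22 in deficient and 5.75, 5.63 and 6.19 in adequate proerythroblast arrays. For C1qc all 6 basophilic arrays were above all 6 proerythroblast arrays.

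Adgre1 encodes the adhesion receptor most used as a surface marker of mouse macrophages, and Csf1r the receptor of their growth factor, colony stimulating factor 1. Adgre1 was at 6.14, 5.70 and 5.64 in deficient and 6.30, 5.77 and 5.55 in adequate basophilic arrays, and at 5.76, 5.46 and 6.22 in deficient and 5.33, 5.25 and 7.16 in adequate proerythroblast arrays. The value of 7.16 in adequate proerythroblast array 3 stood above the other 11 arrays, the nearest of which was at 6.30. Csf1r was at 6.92, 6.64 and 6.37 in deficient and 7.11, 6.68 and 6.62 in adequate basophilic arrays, and at 6.47, 6.06 and 7.06 in deficient and 6.07, 5.77 and 7.28 in adequate proerythroblast arrays. Its highest and its lowest value both came from adequate proerythroblasts.

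Vcam1 encodes an adhesion molecule of the island macrophage that binds the α4β1 integrin of erythroblasts, and Cd163 encodes the scavenger receptor for haptoglobin-bound haemoglobin. Vcam1 was at 6.83, 6.64 and 6.34 in deficient and 7.01, 6.92 and 6.13 in adequate basophilic arrays, and at 6.18, 5.80 and 7.60 in deficient and 5.96, 5.32 and 7.20 in adequate proerythroblast arrays. Again proerythroblast array 3 of each diet was above every basophilic array. Cd163 was at 5.20, 5.77 and 5.20 in deficient and 5.23, 5.37 and 5.31 in adequate basophilic arrays, and at 4.94, 5.05 and 5.11 in deficient and 4.96, 4.93 and 4.99 in adequate proerythroblast arrays. Cd163 differed from Vcam1 in its pattern: all 6 basophilic arrays were above all 6 proerythroblast arrays, and the highest value, in deficient basophilic array 2, came from the array with the highest background.

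Spic encodes the heme-induced transcription factor needed for red pulp macrophages, Hmox1 the heme oxygenase that opens the heme ring, and Slc40a1 the iron exporter ferroportin. Hmox1 and Slc40a1 are also known to be made by erythroid cells. Spic was at 5.65, 4.99 and 4.83 in deficient and 5.44, 5.20 and 4.37 in adequate basophilic arrays, and at 5.02, 4.30 and 6.38 in deficient and 4.67, 4.35 and 6.25 in adequate proerythroblast arrays. Its lowest and its highest value were both found in deficient proerythroblasts, 2.08 log2 units apart. Hmox1 was at 7.00, 6.86 and 6.35 in deficient and 7.14, 6.76 and 5.99 in adequate basophilic arrays, and at 6.32, 6.01 and 7.31 in deficient and 5.84, 5.61 and 7.14 in adequate proerythroblast arrays. Slc40a1 was at 8.37, 7.39 and 8.04 in deficient and 8.73, 7.77 and 8.14 in adequate basophilic arrays, and at 7.93, 7.52 and 8.12 in deficient and 8.25, 8.07 and 8.71 in adequate proerythroblast arrays. For Slc40a1 array 2 was the lowest of its group in all 4 groups, and each deficient array was below the adequate array of the same number and stage.

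**Figure D1:**
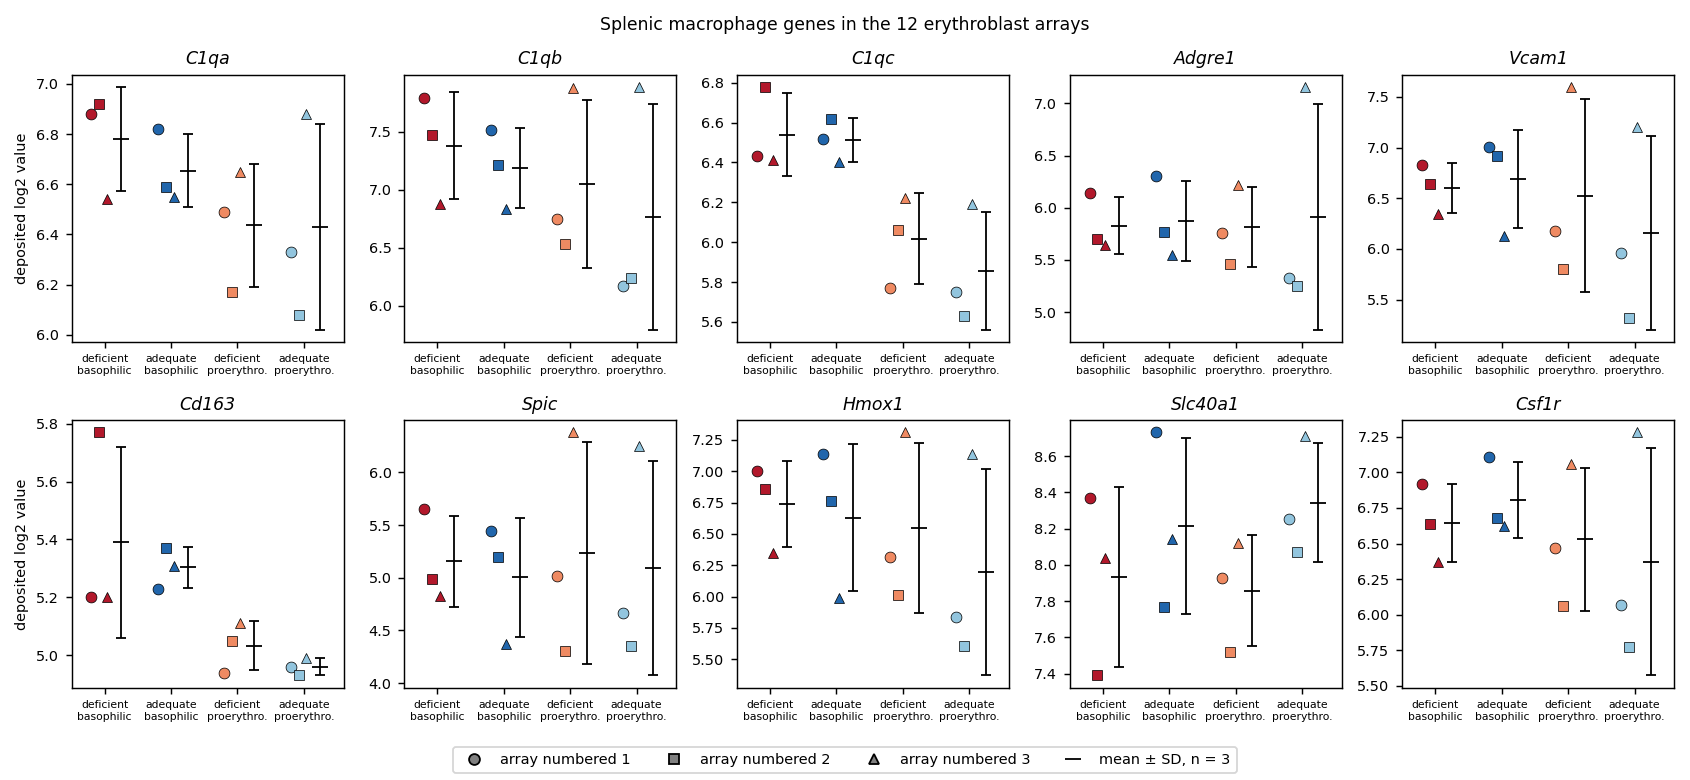
Deposited log2 value (vertical axis) of each of the 10 macrophage genes in the 12 arrays, by group (horizontal axis); circles, squares and triangles are arrays 1, 2 and 3, and bars give mean ± SD (n = 3). In proerythroblasts the triangle, array 3, is the highest point of its group for every gene.

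Most of the 10 genes moved together from array to array within the groups, with C1qc, Cd163 and Slc40a1 as exceptions in most of their pairs. In proerythroblasts array 3 was the highest of its group for 10 of 10 genes on the deficient diet and for 10 of 10 on the adequate diet, whereas of all genes tested 22.4% and 34.0% were highest there. The median deviation of the 10 genes from their group mean was 0.47 log2 units in deficient and 0.93 in adequate proerythroblast array 3. Array 2 was the lowest for 8 of the genes in deficient and 9 in adequate proerythroblasts. In basophilic erythroblasts array 1 was the highest for 7 genes on the deficient and 8 on the adequate diet, against 20.6% and 35.3% of all genes tested, with median deviations of 0.27 and 0.33. Array 3, the highest in proerythroblasts, was the lowest in basophilic erythroblasts for 9 genes on the deficient and 8 on the adequate diet. The labels do not say whether arrays of the same number in different groups share a day, a sort or a mouse.

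The spread within groups was wide for 6 of the genes. Pooled over the groups, the within-group SD exceeded that of 99.2% of all genes tested for Spic, 98.0% for Vcam1, 97.1% for C1qb, 96.3% for Hmox1, 96.0% for Adgre1 and 91.9% for Csf1r. Spic exceeded the filter only in array 1 of both basophilic groups and array 3 of both proerythroblast groups. It was tested through its highest arrays, so its percentage is a description. Slc40a1 exceeded 86.1% and C1qa 67.0%. C1qc, at 50.3%, and Cd163, at 28.2%, lay at and below the middle of all genes tested, whose median SD was 0.22.

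**Figure D2:**
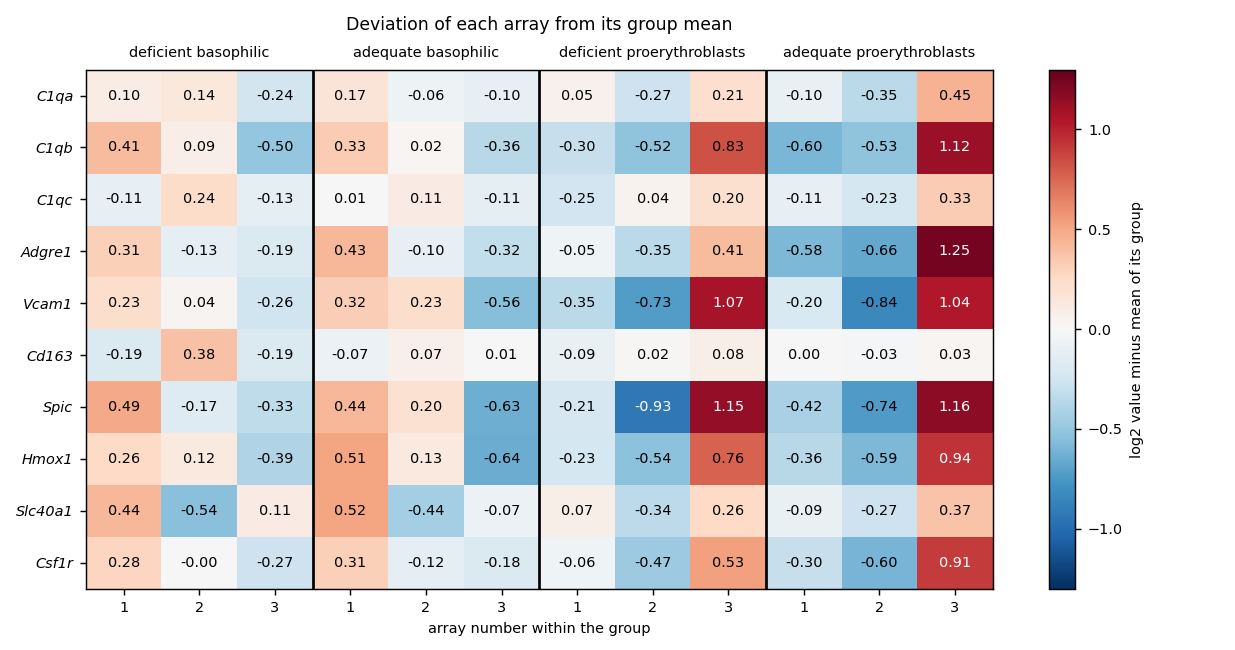
Log2 value minus the mean of its group for each gene (rows) and array (columns, arrays 1 to 3 of each group); red is above and blue below the group mean. Adequate proerythroblast array 3 is the reddest column, with a median of 0.93, and Cd163 and C1qc are the palest rows there.

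Deviations from the group means were correlated between genes over the 12 arrays. C1qa and C1qb deviated together (Pearson r = 0.905, Spearman rho = 0.902, both with a Benjamini-Hochberg adjusted p = 0.00992 from an exact two-sided permutation of the arrays within groups, n = 12). That permutation treats the 12 arrays as separate, although arrays of the same number deviated together between the diets of a stage. With same-numbered arrays of both diets kept together, which leaves 36 arrangements and a smallest possible p of 0.0278, the pair did not pass (exact permutation, adjusted p = 0.0658 for r and 0.0694 for rho). Without the 2 arrays farthest from the median, adequate proerythroblast arrays 2 and 3, r was 0.853. For C1qc r was 0.668 with C1qa (exact permutation within groups, adjusted p = 0.146) and 0.730 with C1qb (exact permutation within groups, adjusted p = 0.110). Without adequate proerythroblast arrays 2 and 3 the first was 0.366, and without array 3 of both proerythroblast groups the second was 0.421. Neither of these relations of C1qc passed the threshold of 0.05 on the deposited values, and with quantile normalization C1qb with C1qc did (r = 0.791, exact permutation within groups, adjusted p = 0.0486). Whether C1qc differs in this from C1qa and C1qb was not tested.

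Of the 45 pairs of the 10 genes, 42 had a positive r, with a median of 0.730, and 24 passed by Pearson's r and 23 by Spearman's rho after adjustment over the 45 pairs (exact permutation within groups, 1296 arrangements, smallest possible p 0.000772). With same-numbered arrays kept together none of the 45 passed by either measure: 19 had an unadjusted p under 0.05 by Pearson's r, and the lowest adjusted p was 0.0658 (exact permutation, 36 arrangements). The calls of pairs that follow are those of the permutation within groups, which ignores this pairing. The highest r was 0.978, between Vcam1 and Spic. Chosen after their values were seen, the 6 genes C1qb, Adgre1, Vcam1, Spic, Hmox1 and Csf1r had r between 0.859 and 0.978 in all 15 of their pairs. C1qa was left out of this choice, although its r with these 6 genes lay in the same range, from 0.872 to 0.958. Cd163 passed in 1 of its 9 pairs, that with C1qc (r = 0.647, exact permutation, adjusted p = 0.0181). That was also the only pair in which C1qc passed. Slc40a1 passed in 2 of its 9 pairs, with Adgre1 (r = 0.677) and with Csf1r (r = 0.675). The lowest r, -0.61, was between Cd163 and Slc40a1 (exact permutation, adjusted p = 0.146). Arrays of a pair share their RNA, labelling reaction and background, and the part of these in the correlations was not tested.

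The first comparison asked whether macrophage transcripts differed between deficient and adequate mice in proerythroblasts. None of the 10 genes passed limma's test at an adjusted p of 0.05, in a comparison in which 4.02% of all genes tested passed, and none had an unadjusted p under 0.05. The log2 differences, deficient minus adequate, ran from -0.49 for Slc40a1 to 0.37 for Vcam1, with a median of 0.15 against 0.02 over all genes tested. No gene of the 10 had deficient arrays clear of the adequate ones, where 31.1% of all genes tested had. The intervals were wide: for Spic the difference was 0.14 with a 95% confidence interval of -1.08 to 1.37, which holds differences of 1 log2 unit in either direction.

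Array 3 set the sign of several of these differences. Without adequate proerythroblast array 3, Adgre1 differed by 0.52 (deficient minus adequate), against -0.10 with it. Without deficient proerythroblast array 3, Vcam1 differed by -0.17, against 0.37 with it, and Hmox1 by -0.03, against 0.35. Leaving out 1 array at a time turned the sign of 7 of the 10 differences and let none pass.

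Slc40a1 was lower on the deficient diet in every pair of arrays of the same number and stage. In proerythroblasts it averaged 7.86 ± 0.31 on the deficient diet and 8.34 ± 0.33 on the adequate diet (SD, n = 3 each), a difference of -0.49 (SE 0.30, limma adjusted p = 0.586). The deficient array was lower than the adequate array of the same number by 0.32, 0.55 and 0.59 log2 units in these 3 pairs. With the array number as a block within each stage, an alternative chosen after the data were seen, Slc40a1 fell in deficient proerythroblasts (-0.49, SE 0.11, 95% confidence interval -0.74 to -0.24, limma adjusted p = 0.0232, lower in 3 of 3 pairs). In that blocked comparison 11.1% of all genes tested passed, 7.05% as lower. Over its 24 alternatives the adjusted p of Slc40a1 ran from 0.0232 to 1, and the block within stage was the only one of them under which it passed. With the same block the other 9 genes did not pass, the nearest being Vcam1 (0.37, limma adjusted p = 0.0967) and Hmox1 (0.35, limma adjusted p = 0.116), each higher on the deficient diet in 3 of 3 pairs.

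The same comparison was made in basophilic erythroblasts. None of the 10 genes passed limma's test and none had an unadjusted p under 0.05, where 0.0199% of all genes tested passed. The differences ran from -0.28 for Slc40a1 to 0.19 for C1qb, with a median of 0.06 against 0.04 over all genes tested. No gene of the 10 had groups that did not overlap, against 8.04% of all genes tested. Slc40a1 averaged 7.93 ± 0.50 in deficient and 8.21 ± 0.48 in adequate basophilic erythroblasts (SD, n = 3 each). It was again lower in 3 of 3 deficient arrays against the adequate array of the same number, by 0.36, 0.38 and 0.10, and did not pass with the block (-0.28, limma adjusted p = 0.255), where 1.45% of all genes tested passed. Without deficient basophilic array 2 the unblocked difference of Slc40a1 was -0.01, and without adequate basophilic array 1 it was -0.02.

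**Figure D3:**
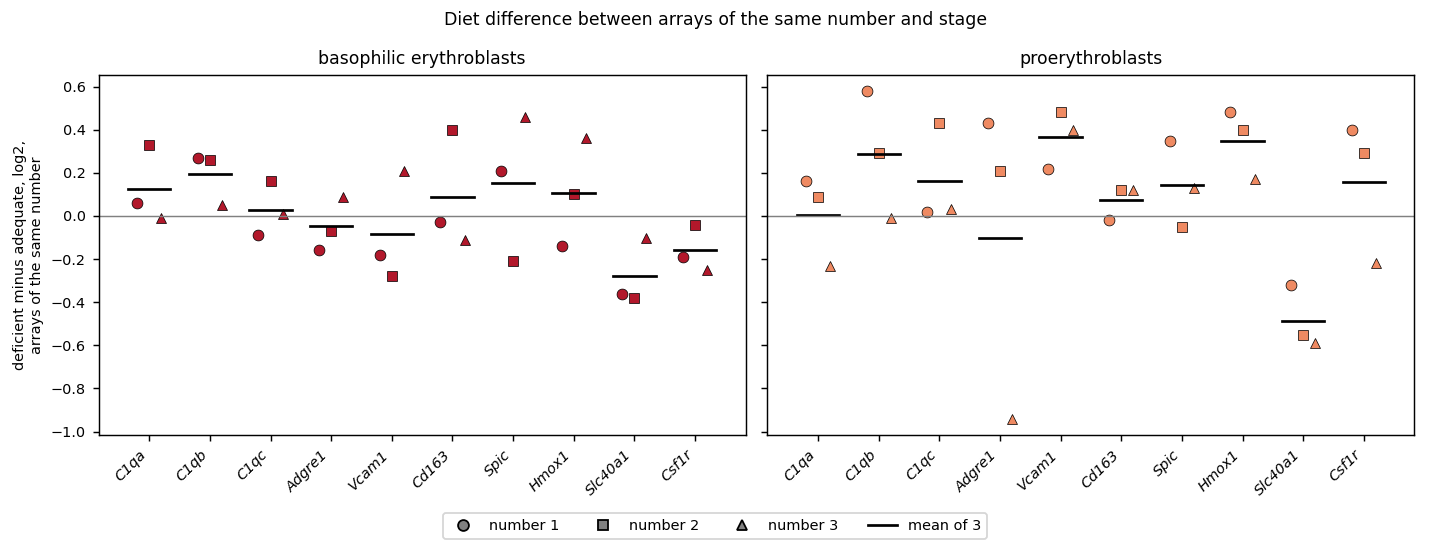
Log2 value of the deficient minus the adequate array of the same number and stage (vertical axis) for each macrophage gene (horizontal axis); circles, squares and triangles are numbers 1, 2 and 3 and the line is their mean. Slc40a1 is below 0 in all 3 pairs of both stages, and Adgre1 in proerythroblasts spreads from 0.43 to -0.94.

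The stage comparisons asked whether macrophage transcripts differed between basophilic erythroblasts and proerythroblasts. On the deficient diet 1 of the 10 genes, C1qc, rose in basophilic erythroblasts, where 56% of all genes tested passed, 31.1% as higher. C1qc averaged 6.54 ± 0.21 in basophilic erythroblasts and 6.02 ± 0.23 in proerythroblasts (SD, n = 3 each), a difference of 0.52 (SE 0.18, limma adjusted p = 0.0292). The adjusted p ran from 0.0187 to 0.108 over 23 alternatives. The call was lost with median centring (difference 0.33, limma adjusted p = 0.0926), with array weights (0.33, limma adjusted p = 0.0521) and when the fit held the arrays of this contrast alone (limma adjusted p = 0.0747). It was also lost without deficient basophilic array 2 (0.40, limma adjusted p = 0.0822), without deficient proerythroblast array 1 (0.40, limma adjusted p = 0.108), without deficient proerythroblast array 2 (0.55, limma adjusted p = 0.0561) and without both basophilic arrays numbered 2 (0.40, limma adjusted p = 0.0713).

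On the adequate diet C1qc again was the 1 gene of the 10 that rose, where 54.2% of all genes tested passed, 28.7% as higher. It averaged 6.51 ± 0.11 in basophilic erythroblasts and 5.86 ± 0.29 in proerythroblasts (SD, n = 3 each), a difference of 0.66 (SE 0.18, limma adjusted p = 0.0127). The adjusted p ran from 3.04e-04 to 0.0568 over 23 alternatives, and the call was lost without adequate proerythroblast array 2 (0.54, limma adjusted p = 0.0568). Without adequate proerythroblast array 3 a second gene, Csf1r, passed, with a difference of 0.88 (limma adjusted p = 0.0346), against 0.43 (limma adjusted p = 0.312) with that array.

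Cd163 entered the test only through 3 basophilic arrays, where it is higher, so its stage difference is given as a description with no test. Basophilic minus proerythroblast, it was 0.36 on the deficient and 0.34 on the adequate diet, and 0.17 on the deficient diet without deficient basophilic array 2. C1qc and Cd163 were the 2 genes of the 10 whose stage groups did not overlap, on either diet, where 66.5% of all genes tested did not overlap on the deficient and 74% on the adequate diet, with 36.9% and 41.4% higher and clear of overlap. For Cd163 this adds no support, since the filter admitted it through its higher group. Both moved with the background, which was higher in every basophilic array than in every proerythroblast array, and with the median of the array, which was 5.36 to 5.55 in deficient basophilic and 5.20 to 5.28 in deficient proerythroblast arrays, and 5.30 to 5.45 and 5.13 to 5.17 on the adequate diet. The part of the background in these results was not tested.

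The other 8 genes had overlapping stages on both diets. Basophilic minus proerythroblast, the median of the 10 genes was 0.15 on the deficient and 0.38 on the adequate diet, against 0.08 and 0.12 over all genes tested. Adgre1 differed by 0.01 and -0.04, Spic by -0.08 and -0.09, and Slc40a1 by 0.08 and -0.13, on the deficient and the adequate diet. Vcam1 differed by 0.08 on the deficient and 0.53 on the adequate diet, with a 95% confidence interval of -0.57 to 1.62 in the adequate comparison. The 2 stage comparisons use separate arrays, but each shares its arrays with the diet comparisons.

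None of the 10 genes passed limma's test of the diet by stage interaction, the diet difference in basophilic erythroblasts minus that in proerythroblasts, where 0.303% of all genes tested passed, and none had an unadjusted p under 0.05. The values ran from -0.45 for Vcam1 to 0.21 for Slc40a1. The interval of the Slc40a1 interaction was -0.71 to 1.12, and a difference between the stages was not detectable with these arrays.

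**Figure D4:**
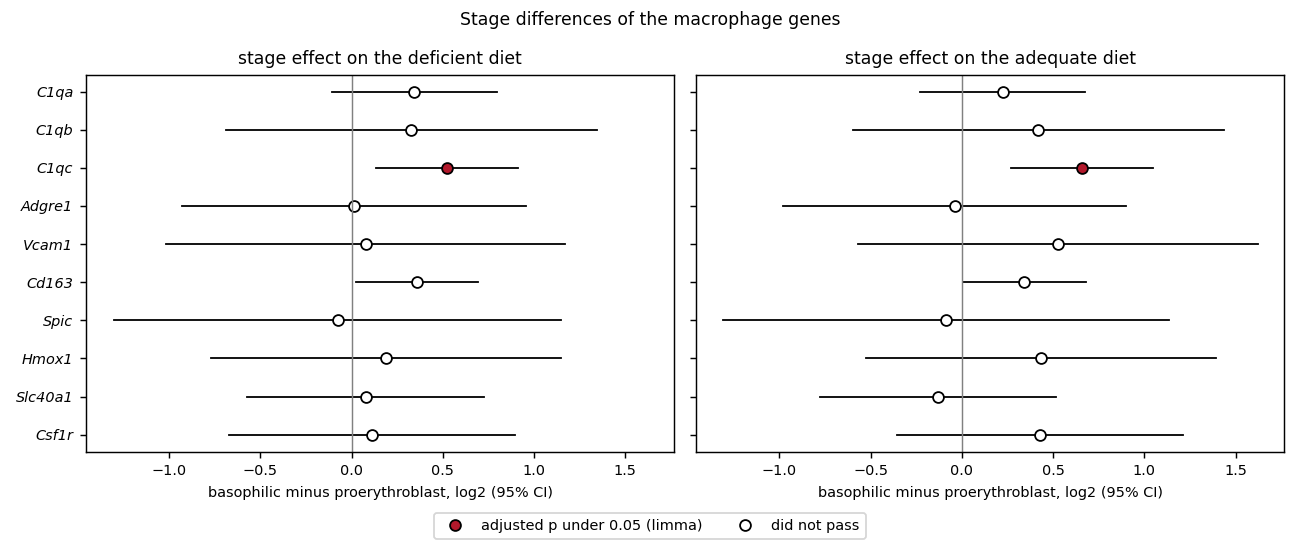
Basophilic minus proerythroblast log2 difference (horizontal axis) with its 95% confidence interval from limma for each macrophage gene, on the deficient diet (left) and on the adequate diet (right); filled points passed an adjusted p of 0.05. C1qc is filled on both diets, at 0.52 and 0.66, and the intervals of Spic, Vcam1 and C1qb are the widest.

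Other macrophage genes were read in the same way. Of a list of 26 genes of red pulp and tissue macrophages, 20 were tested. All 20 were highest in array 3 of the adequate proerythroblasts and 17 in array 3 of the deficient ones, with median deviations of 0.78 and 0.44. Of all genes tested 34.0% and 22.4% were highest in these 2 arrays. In the basophilic groups 11 of the 20 were highest in array 1 on the deficient and 13 on the adequate diet, against 20.6% and 35.3% of all genes tested. Ctss, the lysosomal protease cathepsin S, was at 8.40, 8.10 and 9.40 in deficient and 7.48, 7.66 and 9.64 in adequate proerythroblast arrays 1, 2 and 3, and Lyz2, the lysozyme of myeloid cells, at 7.93, 6.88 and 8.27 and at 7.24, 6.58 and 9.28. Array 3 thus stood above the other arrays of its group for most of these macrophage genes outside the 10 as well. The list was chosen with earlier results of these data known, so this is a description and not independent support. None of the 20 passed for diet at either stage, with medians of 0.16 in proerythroblasts and 0.15 in basophilic erythroblasts. Of all genes tested 4.02% and 0.0199% passed in these comparisons. With the array number as a block within stage 1 of the 20 rose in deficient proerythroblasts, where 11.1% of all genes tested passed.

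In the stage comparisons 5 of the 20 rose in basophilic erythroblasts on the deficient diet and 5 on the adequate diet, and none fell. Of all genes tested 31.1% rose on the deficient and 28.7% on the adequate diet. Folr2, a folate receptor of resident macrophages, differed by 0.57 on the deficient and by 0.54 on the adequate diet. It exceeded the filter in 6 basophilic and 2 proerythroblast arrays, so that it was tested through the stage where it is higher. Its differences are therefore given with no test, and the stage counts over the list, which include Folr2, are a description. Siglec1, the sialic acid receptor CD169, differed by 0.37 on the deficient (limma adjusted p = 0.0407) and by 0.41 on the adequate diet (limma adjusted p = 0.0314). Marco, a scavenger receptor, differed by 0.70 on the adequate diet (limma adjusted p = 0.0162). Without both basophilic arrays numbered 2, 3 of the 20 rose on the deficient and 5 on the adequate diet. These genes were, like C1qc, higher together with the higher background of the basophilic arrays, whose part was not tested.

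Genes of other blood and tissue cells were set beside the 10. In adequate proerythroblasts array 3 was also the highest for 12 of 12 neutrophil genes, 7 of 7 B cell genes, 7 of 7 T and NK cell genes and 8 of 9 monocyte genes, with median deviations of 0.79, 0.61, 0.78 and 0.44. In deficient proerythroblasts it was the highest for 10 of 12 neutrophil genes, 2 of 7 B cell genes, 5 of 7 T and NK cell genes and 6 of 9 monocyte genes, with median deviations of 0.38, 0.16, 0.16 and 0.18. Of all genes tested 34.0% were highest in adequate and 22.4% in deficient proerythroblast array 3. Array 3 thus carried higher levels of genes of several leukocytes along with those of macrophages. Erythroid genes had a median deviation of 0.01 in deficient and -0.20 in adequate proerythroblast array 3. In basophilic erythroblasts array 1 was the highest for 6 of 9 monocyte genes on the deficient and 7 of 9 on the adequate diet, against 20.6% and 35.3% of all genes tested. The summed linear level of the 10 macrophage genes ran from 919 to 1277 in deficient basophilic, 913 to 1381 in adequate basophilic, 698 to 1367 in deficient proerythroblast and 694 to 1541 in adequate proerythroblast arrays. That of the 12 neutrophil genes ran from 1262 to 1492 in deficient basophilic, 989 to 1216 in adequate basophilic, 2536 to 5491 in deficient proerythroblast and 1811 to 6233 in adequate proerythroblast arrays. A linear sum gives most weight to the highest gene. Among the 10 this was Slc40a1, known to be made by erythroid cells as well, in every array but deficient basophilic array 2. The macrophage sums are therefore not a measure of macrophage material alone. The part of other cells in the values of the 10 genes was not tested.

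**Figure D5:**
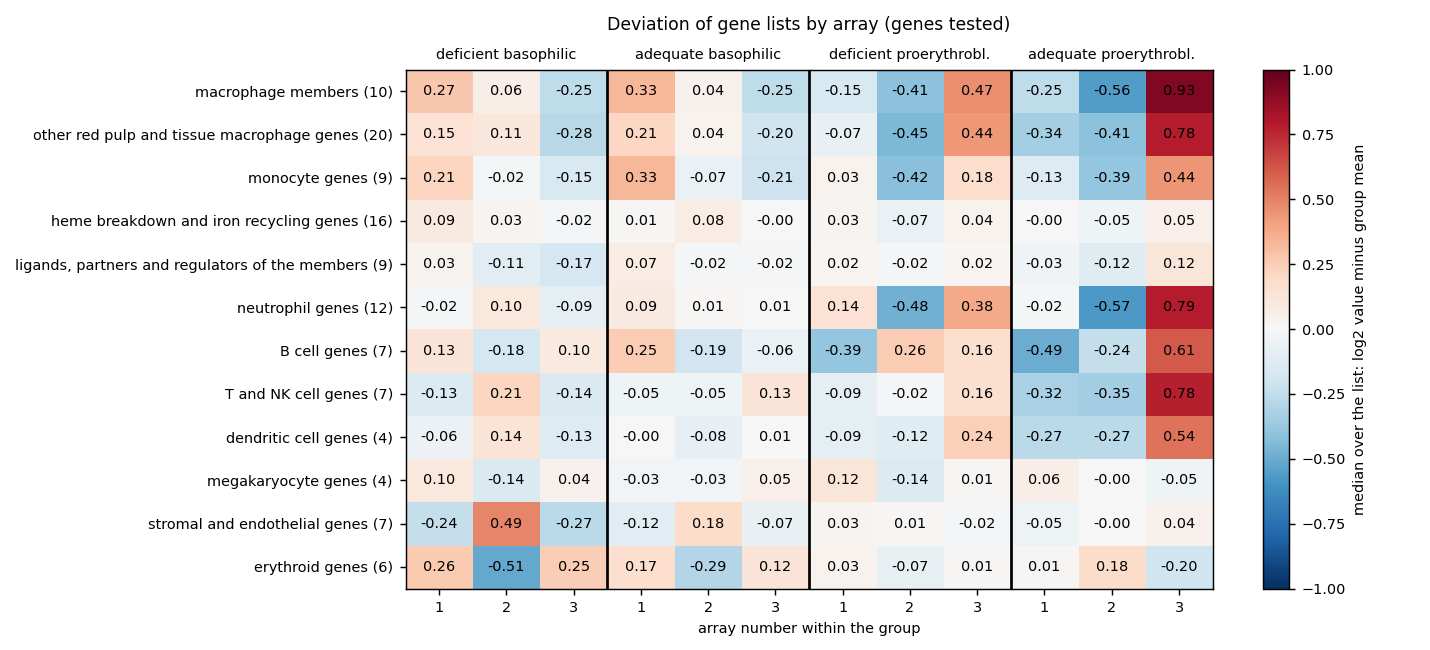
Median over each gene list of the log2 value minus its group mean (colour and number) for each array (columns); the number in brackets is the count of genes tested. Adequate proerythroblast array 3 is high for macrophage, monocyte, neutrophil, B cell, T and NK cell and dendritic cell genes, while the other lists lie between -0.20 and 0.12 there.

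Between stages the lists of other cells were compared in the same way, where 56% of all genes tested passed on the deficient and 54.2% on the adequate diet. Of the 12 neutrophil genes 7 fell in basophilic erythroblasts on the deficient diet, with none higher, and 8 fell and 1 rose on the adequate diet. Ngp, a granule protein of neutrophil precursors, differed by -2.47 on the deficient diet (limma adjusted p = 0.00599). Of the 9 monocyte genes only Ly6c2, the surface antigen of inflammatory monocytes, passed, by -2.27 on the deficient (limma adjusted p = 0.00530) and -1.35 on the adequate diet (limma adjusted p = 0.0320). Without both basophilic arrays numbered 2 none of the 9 passed on the adequate diet. No B cell gene passed in any comparison. Of 7 T and NK cell genes Ncr1, an NK cell receptor, alone passed with stage. It was higher by 0.40 on the deficient and 0.56 on the adequate diet, and exceeded the filter in 6 basophilic arrays and 1 proerythroblast array, so these are given with no test. Of the stromal and endothelial genes 6 of 7 rose with stage on the deficient and 5 of 7 on the adequate diet, among them Col1a1, a collagen chain, by 0.77 (limma adjusted p = 0.0102) and 0.63 (limma adjusted p = 0.0179). Cdh5 and Cxcl12 of this list exceeded the filter in 3 and 5 basophilic arrays and in 0 proerythroblast arrays, so the counts over the list are a description. The 7 genes had their highest value in basophilic array 2 for 6 of 7 genes on each diet, where the background was highest. Of all genes tested, 53.7% were highest in that array on the deficient and 47.3% on the adequate diet. For diet in proerythroblasts none of the 9 monocyte, 7 B cell, 7 T and NK cell or 7 stromal and endothelial genes passed, and of the neutrophil genes 1 did, Mmp9, a secreted gelatinase (0.57, limma adjusted p = 0.0373). Of all genes tested 4.02% passed for diet there, a share that also applies to the dendritic cell, megakaryocyte and erythroid lists below. At that share a short list with no gene passing says little about its cell type. With the array number as a block within stage 2 monocyte and 3 neutrophil genes rose in deficient proerythroblasts. With that block 11.1% of all genes tested passed. Without both basophilic arrays numbered 2 the neutrophil count was 2. Mmp8 of the neutrophil list exceeded the filter only in deficient arrays, at 5.84, 5.92, 6.32 and 6.74. It was tested through the diet where it is higher, so the neutrophil counts for diet are a description. Of 4 dendritic cell genes Zbtb46, a transcription factor of classical dendritic cells, fell in deficient proerythroblasts by 0.82 (limma adjusted p = 0.00958) and in adequate basophilic erythroblasts against proerythroblasts by 0.58 (limma adjusted p = 0.00912). The other dendritic cell genes passed in neither comparison. In deficient proerythroblasts Siglech differed by 0.14, Flt3 by 0.08 and Itgax by -0.04, so the fall was that of Zbtb46 and not of the list. Of 4 megakaryocyte genes Itga2b, the αIIb integrin chain, rose in deficient proerythroblasts by 0.75 (limma adjusted p = 0.0324). The others did not pass there, with Vwf at 0.18, Gp9 at -0.28 and Pf4 at -0.19. With stage 2 megakaryocyte genes rose on each diet, or 3 without both basophilic arrays numbered 2. Of 6 erythroid genes Slc4a1 rose in deficient proerythroblasts by 1.39 (limma adjusted p = 2.55e-04) and Alas2 by 1.67 (limma adjusted p = 8.89e-04). With stage 2 erythroid genes rose on the deficient and 3 on the adequate diet, and 5 and 6 without both basophilic arrays numbered 2.

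Ligands, partners and regulators of the 10 genes were tested for the same comparisons. None of the 9 tested passed for diet at either stage, where 4.02% of all genes tested passed in proerythroblasts and 0.0199% in basophilic erythroblasts. In deficient proerythroblasts 1 of the 9 rose with the array number as a block within stage, where 11.1% of all genes tested passed. Without both basophilic arrays numbered 2, 1 of the 9 fell there. With stage, Il34, a ligand of the CSF1 receptor, was higher by 0.68 on the deficient and 0.55 on the adequate diet, but it exceeded the filter in 6 basophilic and 0 proerythroblast arrays, so these differences are given with no test. Maea, the erythroblast macrophage attachment protein, fell by 0.83 on the deficient (limma adjusted p = 0.0285) and by 1.04 on the adequate diet (limma adjusted p = 0.0126). Itgb1, the β1 chain of the integrin that binds VCAM1, fell by 1.01 on the deficient diet (limma adjusted p = 0.0180). On the adequate diet it differed by -0.57 and did not pass (limma adjusted p = 0.116). For both genes basophilic array 2, that of the highest background, was the lowest of its group on each diet. In deficient basophilic arrays 1, 2 and 3 Itgb1 was at 8.34, 7.07 and 8.38 and Maea at 8.81, 7.77 and 8.59. The part of array 2 in these 2 differences was not tested.

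Other genes of heme breakdown and iron recycling, the pathway of Hmox1 and Slc40a1, were tested for the same comparisons. Of the 16 tested, 3 rose in deficient proerythroblasts, none fell and 13 did not pass, where 4.02% of all genes tested passed. The 3 were Ncoa4, the receptor for ferritin turnover (1.24, limma adjusted p = 0.00668), Tfrc, the transferrin receptor (0.97, limma adjusted p = 0.0347), and Ftl1, the ferritin light chain (0.52, limma adjusted p = 0.0383). With the array number as a block within stage 5 rose, where 11.1% of all genes tested passed in either direction. Without both basophilic arrays numbered 2, which share only the estimate of spread, 6 rose and 1 fell. No share of all genes tested is given for fits without those arrays. In basophilic erythroblasts none of the 16 passed for diet, where 0.0199% of all genes tested passed. With the block within stage 1 rose, where 1.45% of all genes tested passed, and 1 rose without both basophilic arrays numbered 2. With stage 5 rose and 2 fell on the deficient diet, and 8 rose and 3 fell on the adequate diet, where 31.1% and 28.7% of all genes tested rose and 56% and 54.2% passed in either direction. Without both basophilic arrays numbered 2 these counts were 9 and 3 on the deficient and 10 and 3 on the adequate diet. Slc48a1, a heme transporter, differed between stages by 1.27 on the deficient and 1.83 on the adequate diet, where Hmox1 differed by 0.19 and 0.43. These differences between genes were not tested. The list was at median deviations of 0.04 in deficient and 0.05 in adequate proerythroblast array 3, where the 10 macrophage genes were at 0.47 and 0.93.

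The genes outside the 10 whose log2 values most resembled the mean of C1qa, C1qb and C1qc over the 12 arrays were found by Pearson's r, as a description. They were Frmd4b (r = 0.982), a scaffold protein, Tcf7l2 (0.970), a transcription factor of the Wnt pathway, Itga9 (0.970), the α9 integrin chain, and Axl (0.964), a receptor for the uptake of dead cells. Then came Fcgrt (0.955), the receptor that recycles IgG, Hfe (0.945), the haemochromatosis protein, Itgb5 (0.943), the β5 integrin chain, Igf1 (0.938), a growth factor, Tmem141 (0.931) and Abcc3 (0.926), an organic anion transporter. Frmd4b was at 5.83, 5.98 and 5.53 in deficient and 5.70, 5.70 and 5.55 in adequate basophilic arrays, and at 5.37, 5.22 and 5.83 in deficient and 4.98, 5.01 and 5.90 in adequate proerythroblast arrays. Of the 10 macrophage genes outside C1q, Hmox1 followed the mean most closely (0.920) and Slc40a1 least (0.219). The points share their arrays and the difference in background between stages.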

How the data were processed

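Expression was measured on 12 Affymetrix whole-transcript arrays, labelled with the WT Pico kit per the labels' protocols. The authors deposited log2 values made with Affymetrix Expression Console, per the submitters' processing notes; its version, background correction, normalization and genome build are not given in the sources used here. No further normalization was applied. Of 72688 features, 31258 named 1 gene, 1492 several and 39938 none after 1775 symbols were updated, and the feature with the highest mean stood for each gene. The number of arrays limits precision.

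Groups came from the titles. A mean per group was fitted with limma 3.58.1 (eBayes defaults, R 4.3.3; python 3.11.15 for tables), tested on simulated data, with p-values adjusted by Benjamini-Hochberg over 20129 genes. Over these genes, deviations of arrays of the same number correlated at 0.18 to 0.52 between diets in proerythroblasts and 0.54 to 0.78 in basophilic erythroblasts. Arrays of different numbers correlated at -0.40 to 0.08 and -0.76 to 0.60. Numbers were therefore taken to pair arrays for diet, but only in the block within stage and the permutation that keeps same-numbered arrays together. The main fit had no block, so its diet tests and intervals ignore the pairing. Between stages arrays of the same number correlated at 0.097 to 0.25 on the deficient diet, and those of different numbers at -0.26 to 0.04. On the adequate diet these were -0.17 to 0.21 and -0.18 to 0.18. Pairing was taken where every same-numbered correlation exceeded 0.1. The deficient diet fell just short of this, and no pairing between stages was taken. All 10 genes were named throughout, and of 11 further lists up to 4 genes of smallest p. The members and lists were chosen with earlier results of these data known.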

Additional observations from a re-analysis of the deposited data

How the results depend on the processing

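Alternatives were no or a stricter filter, quantile normalization, array weights (gene by gene), median centring, a trended robust variance, the array number as a fixed or random block, the mean of features, the arrays of the contrast only, an adjusted p of 0.1, each array left out and, chosen after seeing the data, both basophilic arrays numbered 2 left out and a replicate block within stage. No called difference changed sign. The replicate block within stage brought the count of the 10 genes past the threshold for diet in proerythroblasts to 1, from 0, and changed no other call of diet among them. For stage on the deficient diet the count of 1 became 0 with median centring, array weights, the contrast's arrays only and without both basophilic arrays numbered 2, and 2 with a random replicate block and at an adjusted p of 0.1, and ranged from 0 to 2 with 1 array left out. For stage on the adequate diet the count of 1 became 2 with array weights, the contrast's arrays only, without both basophilic arrays numbered 2 and at an adjusted p of 0.1, and ranged from 0 to 2 with 1 array left out. With 2 arrays left out, r was 0.366 for C1qa with C1qc and 0.421 for C1qb with C1qc. With the replicate block kept in the permutation, added after seeing the data, the r of 0.905 of C1qa with C1qb did not pass (exact permutation, adjusted p = 0.0658). Quantile normalization gave C1qb with C1qc an r of 0.791 (exact permutation within groups, adjusted p = 0.0486). Cd163, the second gene in each count of 2 but that without adequate proerythroblast array 3, entered the test through its higher stage only, and was below the filter under the stricter filter, quantile normalization and median centring. Uncalled differences turned sign in 19 of 236 alternative values for diet in proerythroblasts and 23 of 236 in basophilic erythroblasts. Low values such as those of Cd163 and Spic lie nearest the background of 3.31 to 4.70.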
